A study of Sus scrofa with 4 samples.

Results

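FAM213B (ENSSSCG00000026554, now also named PRXL2B) is 1 of 22658 features measured in longissimus dorsi (LD), the long muscle of the back, of Laiwu pigs. The gene was chosen by its high expression and by the large step in its FPKM between the libraries labelled 120 and 240 d, so its levels and that step are described here without a test. Only the pair of 60 and 400 d, whose libraries were not those of that step, was tested for FAM213B. The test is not independent of the choice, since high expression was part of it and the 60 d libraries hold the highest mean. RNA-seq was made on LD muscle of 12 pure castrated male Laiwu pigs, an indigenous fatty breed of North China, all listed as wild type and raised under similar conditions, with 3 separate pigs at each of 60, 120, 240 and 400 d of age. Pigs of each age were of similar body weight, and each library comes from 1 pig sampled once, so a change with age is a difference between pigs. Libraries held 9713813 to 13325327 counts each, and the question that the ages address is how expression in the muscle changes while fat is laid down within it.

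The protein made from FAM213B is a member of the thioredoxin-like fold family and is known as prostamide/prostaglandin F synthase. It reduces prostaglandin H2, the common precursor that cyclooxygenases make from arachidonic acid, to prostaglandin F2α, and it turns the ethanolamide form of the precursor into prostamide F2α. Thioredoxin-type proteins supply the reducing power for such enzymes, which places the gene between the redox system and the eicosanoids. Prostaglandin F2α is known to act on muscle cell growth and on the formation of fat cells, through its receptor PTGFR. The feature lay on chromosome 6 from 58856671 to 58859805, minus strand, in the Sscrofa10.2 coordinates of the files, with a transcript length of 818 bases.

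Before the values are read, the ages need a caution. In the study's own listing of changed genes, the libraries labelled 400, 240, 60 and 120 d carry the ages 60, 120, 240 and 400 d, in that order. Over the 203 to 1017 genes compared per age, the mean FPKM of the listing and of the matched libraries differed by a median of 0.0198 to 0.0200 on the log2 scale, and those of the next closest libraries by at least 0.495. Which of the ages is right was not settled from the files, and the other measurements of the study were not used for it. All ages below are those of the sample labels. The means, the main log2 changes and the coefficients of variation of FAM213B are also given with the listed ages. Its ranks, the gap of its step and the fits with a library left out are given with the labels only.

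FAM213B was abundant in every library, and it was several-fold higher in the libraries labelled 60 and 120 d than in those labelled 240 and 400 d. FPKM, a level corrected for transcript length and for the size of the library, was 988, 380 and 504 in the 3 libraries of 60 d. At 120 d it was 317, 286 and 471. The libraries of 60 and 120 d overlapped, and 60 d library 1 stood above all of the others. FPKM fell to 102, 70.6 and 92.4 at 240 d. At 400 d it was 125, 95.3 and 104. The 240 and 400 d libraries overlapped each other, and none of these 6 reached the lowest value of the earlier ages.

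**Figure D1:**
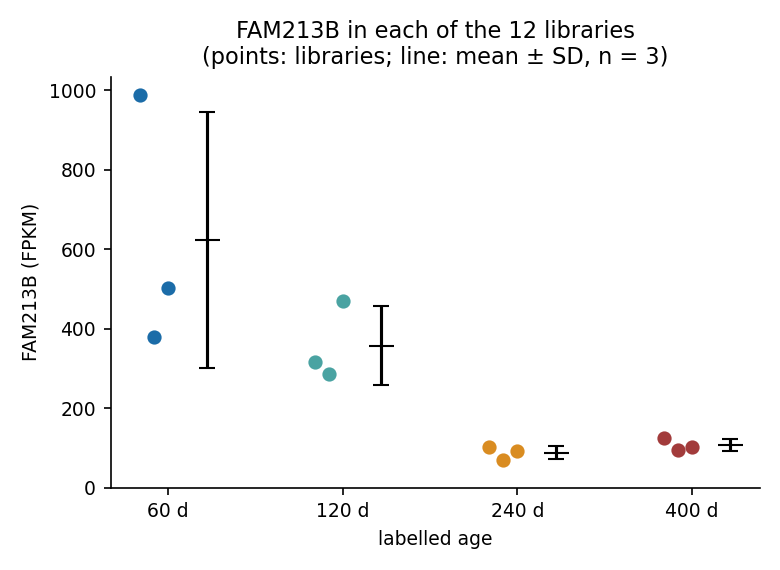
FPKM of FAM213B (vertical axis, from 0) in the 12 libraries by labelled age (horizontal axis), with 1 point per library and the mean ± SD of the 3 libraries of an age beside it. The 6 points of 60 and 120 d lie between 286 and 988, above the 6 points of 240 and 400 d, which lie between 70.6 and 125.

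The 60 d libraries averaged 624 ± 322 FPKM and the 120 d libraries 358 ± 99.0 FPKM (mean ± SD, n = 3 each). The averages of the 240 and 400 d libraries were 88.5 ± 16.3 and 108 ± 15.1 FPKM (mean ± SD, n = 3 each). The order of the means was therefore 60, 120, 400 and 240 d, and the neighbours 60 and 120 d, and 400 and 240 d, overlapped in their libraries. With the listed ages the same means belong to 240 d (624), 400 d (358), 60 d (108) and 120 d (88.5), and the gene is higher at the 2 later ages instead of the 2 earlier ones. In each library FAM213B ranked among the more abundant features, between 106th and 270th by FPKM at 60 and 120 d and between 491st and 862nd at 240 and 400 d, out of 15447 to 16355 features above 0.

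The counts separated the same libraries. The 60 d libraries held 3540, 1813 and 2014 counts of FAM213B, and the 120 d libraries held 1445, 1425 and 2027. The 240 d libraries held 391, 352 and 419 counts, and the 400 d libraries held 637, 363 and 488. At these depths counting error was small beside the differences between ages. The highest library reached 363 CPM, the count scaled by the library total (95% Wilson interval 351 to 375), and the lowest 29.5 CPM (95% Wilson interval 26.6 to 32.8), where the interval covers counting error only.

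The step from 120 to 240 d, on which the gene was selected, was 4.04-fold in mean FPKM, a log2 ratio of -2.02 (SE 0.28). It was -2.18 (SE 0.24) as an edgeR log2 change of normalised counts and -2.25 in CPM. Among the 696 features that averaged 100 FPKM or more at 120 or 240 d, FAM213B had the 7th largest fall, next to DYNLL1 with -2.01. The lowest of the 120 d libraries lay 183 FPKM above the highest of the 240 d libraries. With the listed ages, the log2 ratio from 120 to 240 d is 2.82 (SE 0.46), a rise, because it then compares the libraries labelled 240 and 60 d.

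From 60 to 400 d, the pair whose libraries were not those of the step, FAM213B fell by 2.58 on the log2 scale (SE 0.38, adjusted p = 0.0143, quasi-likelihood test of edgeR with Benjamini-Hochberg adjustment over 12976 features). This p is not independent of the choice of the gene, in which its high expression, highest in mean at 60 d, took part. With the listed ages, the 60 d libraries also belong to the step from 120 to 240 d. Its mean FPKM was 5.79-fold lower at 400 d, a log2 ratio of -2.53 (SE 0.44), and all 3 libraries of 400 d lay below all 3 of 60 d. The two-sided exact permutation test of the FPKM values gave p = 0.1, the smallest that 3 libraries against 3 can give. In this comparison 14.1% of the features passed a false discovery rate of 0.05, 6.88% higher and 7.18% lower at 400 d, and FAM213B had the 225th largest fall of those tested and the 29th largest of the 768 with at least 100 FPKM. Without 60 d library 1, which held the highest value, the log2 change was -2.07 (adjusted p = 0.0128). The call was lost without any 1 of the 400 d libraries, at log2 changes of -2.72, -2.50 and -2.59 (adjusted p = 0.0544, 0.0659 and 0.0526). With the listed ages the log2 change from 60 to 400 d is 1.91, a rise, given without a test because it then rests on the libraries labelled 120 d, which are part of the step used to choose the gene.

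The other pairs of ages, which share libraries with the step, are given as values. The log2 ratio of mean FPKM was -0.80 (SE 0.49) from 60 to 120 d and 0.29 (SE 0.19) from 240 to 400 d, and in both pairs the libraries overlapped. It was -2.82 (SE 0.46) from 60 to 240 d and -1.73 (SE 0.26) from 120 to 400 d, without overlap. The drop thus lay between the 2 pairs of labelled ages rather than within either pair. With the listed ages these log2 ratios are -0.80 (240 to 400 d), -0.29 (60 to 120 d), 2.82 (120 to 240 d) and 1.73 (60 to 400 d).

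The spread between pigs was widest at 60 d and smaller at 240 and 400 d. The coefficient of variation of FPKM was 51.5, 27.7, 18.4 and 14.0% in order of labelled age (the listed ages 240, 400, 120 and 60 d). On the log2 scale the SD of FAM213B was 0.71 at 60 d, larger than that of 82.0% of 11373 features, where the median feature had 0.38. At 240 d its SD was 0.28, larger than that of 51.3% of the features, against a median of 0.27. At 400 d its SD was 0.20, larger than that of 38.9% of the features, against a median of 0.25. The order of these last ages depended on the unit. In CPM the mean ± SD was 33.4 ± 3.36 at 240 d and 39.8 ± 7.78 at 400 d (n = 3 each). In order of labelled age, the highest library exceeded the lowest 2.60-, 1.65-, 1.45- and 1.31-fold in FPKM.

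The balance of short and long transcripts moved with FAM213B, which is itself short. The median log2 level of 2046 features below 1000 bases, minus that of 3085 features of at least 4000 bases, each relative to its own mean over the libraries, was 0.53, 0.22 and 0.07 in the 60 d libraries and 0.15, 0.05 and 0.11 in the 120 d libraries. The 240 d libraries had -0.09, -0.20 and -0.05, and the 400 d libraries had -0.15, -0.20 and -0.11. The highest value belonged to 60 d library 1, the library with the most FAM213B, and the part of this shift in the FAM213B difference was not tested.

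The features that followed FAM213B were described by Pearson's r of log2(FPKM + 0.1) over the 12 libraries, among 11372 other features that averaged 1 FPKM or more. Neither this likeness nor the one within ages changes with the listed ages, which keep the same libraries together. These r values carry no p, since the libraries share the same step between ages and any feature with that step gives a high r. The 10 highest r belonged to ENHO (0.985), NREP (0.970), FITM1 (0.967), CH242-228L8.2 (0.964), PLP2 (0.964), COPS9 (0.961), NT5M (0.961), GYPC (0.958), ENSSSCG00000003378 (0.956) and MYOD1 (0.955). ENHO encodes adropin, a secreted peptide of energy metabolism. FITM1 acts in the formation of lipid droplets in muscle, and MYOD1 is a transcription factor of the muscle lineage.

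ENHO followed FAM213B most closely. Its FPKM was 356, 131 and 266 in the 60 d libraries and 102, 107 and 241 in the 120 d libraries. The 240 d libraries had 24.5, 14.8 and 15.2 FPKM, and the 400 d libraries 35.0, 17.1 and 18.7 FPKM. Libraries 1 of 60 d and 3 of 120 d were the highest of their age in both genes. NREP, a small protein of cell migration and repair, had mean FPKM of 244, 189, 21.5 and 35.8 at 60, 120, 240 and 400 d. The means of FITM1 were 429, 329, 187 and 192 FPKM, and those of MYOD1 were 57.8, 40.6, 7.48 and 10.4 FPKM. All of these genes had the same order of ages as FAM213B. Of the 10 features, 7 remained among the 10 highest without 60 d library 1, 3 without 120 d library 2, 5 without 400 d library 2 and 6 to 8 without any other 1 library. The number was 6 with normalised log2 CPM in place of FPKM and 3 with Spearman's rho.

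**Figure D2:**
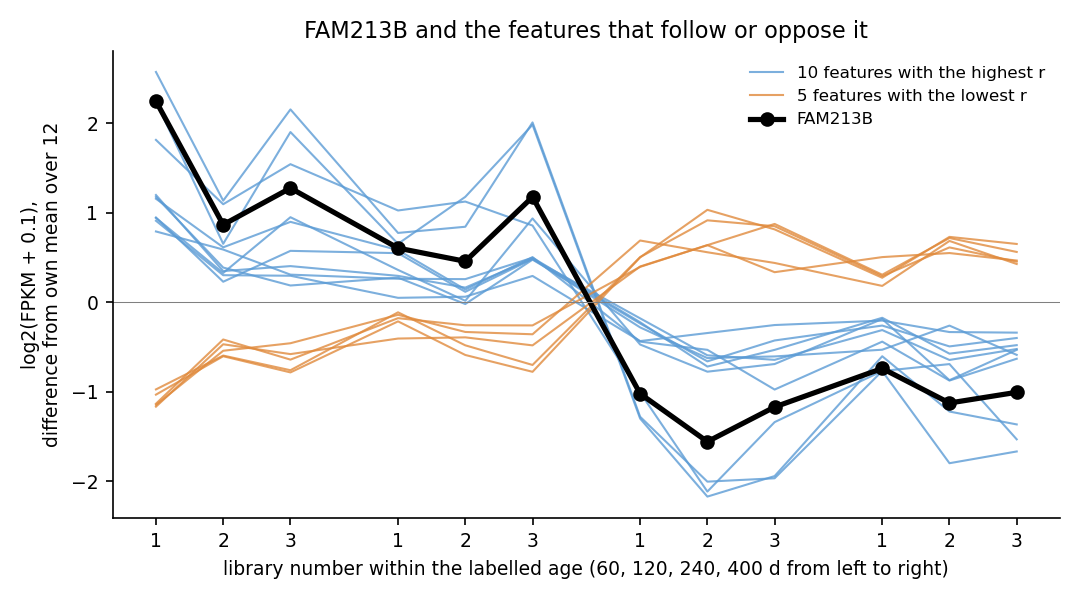
log2(FPKM + 0.1) of FAM213B (black), of the 10 features with the highest r to it (blue) and of the 5 with the lowest r (orange), each as the difference from its own mean over the 12 libraries (vertical axis), in library order within each labelled age (horizontal axis). FAM213B and its followers lie above 0 in the 60 and 120 d libraries, except ENSSSCG00000003378 just below it in 120 d library 2, and below 0 in the 240 and 400 d libraries, and the 5 opposed features do the reverse.

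The lowest r belonged to ENSSSCG00000027352 (-0.979), ENSSSCG00000023963 (-0.975), NFE2L1 (-0.974), MARF1 (-0.974) and CHUK (-0.966). NFE2L1 encodes a transcription factor of the proteasome and of oxidative stress genes, and its mean FPKM went from 36.7 at 60 d and 47.1 at 120 d to 107 at 240 d and 86.1 at 400 d. CHUK, a kinase of the NF-κB pathway, went from 5.70 and 7.62 to 13.7 and 12.6 FPKM. In all, 124 features had an r of at least 0.9 and 183 an r of -0.9 or lower. Transcript length differed between these sets, with a median of 1561.5 bases in the first and 4877 bases in the second, against 2486.5 bases over all of the features.

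A second likeness, which leaves the step between ages out, used the deviation of each library from the mean of its age. Among the 8 features with the highest r were SCMH1 (0.947), FAM131B (0.940), ASB18 (0.932), pig_newGene_1215 (0.925), GAMT (0.924), HRC (0.924) and CACNB1 (0.921). GAMT makes creatine, HRC binds calcium in the sarcoplasmic reticulum and CACNB1 is a subunit of the muscle calcium channel. PAN3 (-0.957), SERINC5 (-0.956), UHRF2 (-0.948) and ENSSSCG00000024961 (-0.938) had the lowest r. Without 60 d library 1, SCMH1 had an r of 0.884, FAM131B of 0.840 and PAN3 of -0.914. The choice of features depended on single libraries, since 0 of the 8 remained among the 8 highest without 60 d library 1, 1 without 60 d library 2 or 120 d library 2, and at most 5 without any other library. None of these named features was among the 15 named for the likeness over all libraries.

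**Figure D3:**
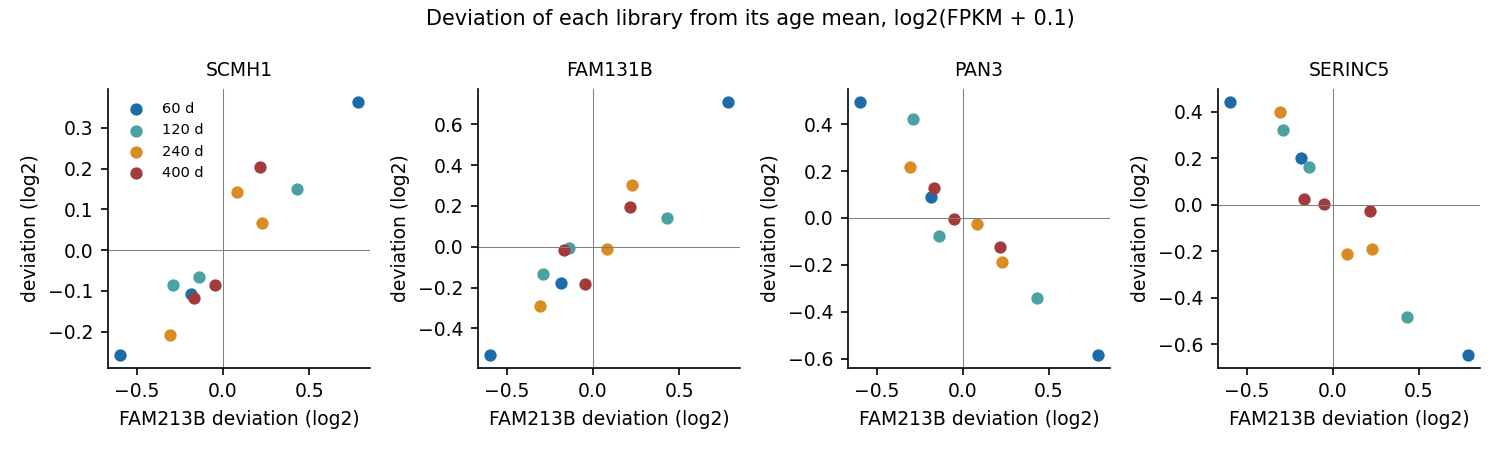
Deviation of each of the 12 libraries from the mean of its labelled age, in log2(FPKM + 0.1), for FAM213B (horizontal axes) and for SCMH1, FAM131B, PAN3 and SERINC5 (vertical axes), coloured by age. The point of 60 d library 1 lies farthest to the right in all panels, and r was 0.947, 0.940, -0.957 and -0.956.

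The 2 other members of the family in the list did not share the fall. FAM213A (PRXL2A), a relative with the same fold, had mean FPKM of 9.44, 8.26, 11.1 and 10.3 at 60, 120, 240 and 400 d, with log2 changes of 0.13 (SE 0.20, adjusted p = 0.669) from 60 to 400 d and 0.37 (SE 0.17, adjusted p = 0.191) from 120 to 240 d in the test of edgeR. AAED1 (PRXL2C) went the other way from FAM213B and rose from 4.56 FPKM at 60 d to 8.70 FPKM at 400 d (log2 change 0.98, SE 0.21, adjusted p = 0.0266, edgeR). All libraries of AAED1 at 400 d, from 7.92 to 9.28 FPKM, lay above those of 60 d, from 3.60 to 5.05 FPKM. FAM213B was thus by far the most abundant of the 3 per length, at every age.

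Of the 49 redox genes listed (peroxiredoxins, thioredoxin and glutathione systems, superoxide dismutases and their regulators), 33 were matched to a feature and all 33 were tested. From 60 to 400 d, 1 rose and 0 fell, where 6.88% of all features rose and 7.18% fell, and the median log2 change was -0.11, against -0.03 over all features. KEAP1, the adaptor that marks the antioxidant factor NFE2L2 for breakdown, was the gene that rose, with 0.308, 0.271 and 0.493 FPKM at 60 d and 1.03, 1.35 and 0.998 FPKM at 400 d (log2 change 1.67, SE 0.32, adjusted p = 0.0214, edgeR). Its level was far below that of FAM213B. PRDX1 and PRDX6, peroxiredoxins that remove peroxides, had log2 changes of -0.17 (adjusted p = 0.599) and -0.01 (adjusted p = 0.97) in the same test. TXNRD1, the cytosolic thioredoxin reductase, had -0.48 (adjusted p = 0.353).

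From 120 to 240 d, 5.43% of 12993 features passed the test in either direction, 2.29% higher and 3.13% lower at 240 d. Of the 33 redox genes, 3 rose and 1 fell, and the median log2 change was -0.09 against 0.00 over all features. HMOX2, the constitutive haem oxygenase, rose from a mean of 20.2 to 56.7 FPKM (log2 change 1.49, SE 0.16, adjusted p = 0.0158, edgeR), and SESN1, a stress-induced regulator of peroxiredoxins and growth signals, rose from 29.8 to 55.9 FPKM (log2 change 0.88, SE 0.19, adjusted p = 0.0443). KEAP1 rose here too (log2 change 1.40, SE 0.22, adjusted p = 0.0321). PRDX4, the peroxiredoxin of the endoplasmic reticulum, moved the same way as FAM213B, from 40.2, 44.9 and 60.1 FPKM at 120 d to 24.9, 17.5 and 24.9 FPKM at 240 d (log2 change -1.11, SE 0.22, adjusted p = 0.0413, edgeR), with no overlap. Between 60 d (36.7 to 69.1 FPKM) and 400 d (32.8 to 36.5 FPKM) PRDX4 did not pass (log2 change -0.46, adjusted p = 0.244).

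Of the 40 prostaglandin genes listed (release of arachidonic acid, synthesis, breakdown, transport and receptors), 28 were matched and 21 had counts enough to be tested. PTGS2, AKR1B1, CBR1, PTGFR and, of the redox list, TXN were not matched by name and were not analysed here. From 60 to 400 d, 0 rose and 1 fell at the edgeR threshold, beside 6.88% and 7.18% of all features, and the median log2 change was -0.90 against -0.03 over all features. PTGFRN, which encodes a membrane protein that lowers the binding of prostaglandin F2α to its receptor, was the gene that fell, from a mean of 6.20 to 2.91 FPKM, with the 60 d libraries at 5.48 FPKM or above and the 400 d libraries at 3.60 FPKM or below (log2 change -1.12, SE 0.24, adjusted p = 0.0261, edgeR). From 120 to 240 d, 0 of the 21 passed in either direction, and the median log2 change was -0.03.

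The levels of the enzymes around FAM213B in the pathway ranged widely. PTGS1, the constitutive cyclooxygenase that makes prostaglandin H2, had mean FPKM of 2.39, 2.51, 2.45 and 1.24 at 60, 120, 240 and 400 d. Its log2 changes were -0.90 (adjusted p = 0.0966) from 60 to 400 d and -0.03 (adjusted p = 0.924) from 120 to 240 d in edgeR. PTGES, a prostaglandin E synthase that uses the same precursor, had mean FPKM of 1.09, 1.14, 0.738 and 0.425. HPGD, the dehydrogenase that inactivates prostaglandins, had mean FPKM of 1.69, 1.68, 1.35 and 0.733. FPKM, a measure per length, was higher for FAM213B than for PTGS1, PTGES and HPGD in every library. PTGES2 and PTGES3, other prostaglandin E synthases, named after their values were seen, were more abundant, with mean FPKM of 37.5, 22.3, 24.4 and 21.5 for PTGES2 and 58.5, 55.1, 69.7 and 75.7 for PTGES3. In the 240 d library 2, PTGES3 (86.9 FPKM) lay above FAM213B (70.6 FPKM). Over both lists together, 2 of 54 tested genes passed from 60 to 400 d and 4 of 54 from 120 to 240 d. Of all features, 14.1% and 5.43% passed. Without any 1 of the 400 d libraries, 0 list genes passed from 60 to 400 d, beside 8, 0 and 148 features in all. Without 60 d library 1 it was 5 of 55, beside 1892 of 13055 features. From 120 to 240 d, 0 to 2 list genes passed without any 1 of its libraries, beside 2 to 470 features. With the listed ages, 7 of 54 passed from 60 to 400 d, beside 2025 of 12989 features. From 120 to 240 d, 1 of 54 then passed, beside 238 of 12926 features.

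**Figure D4:**
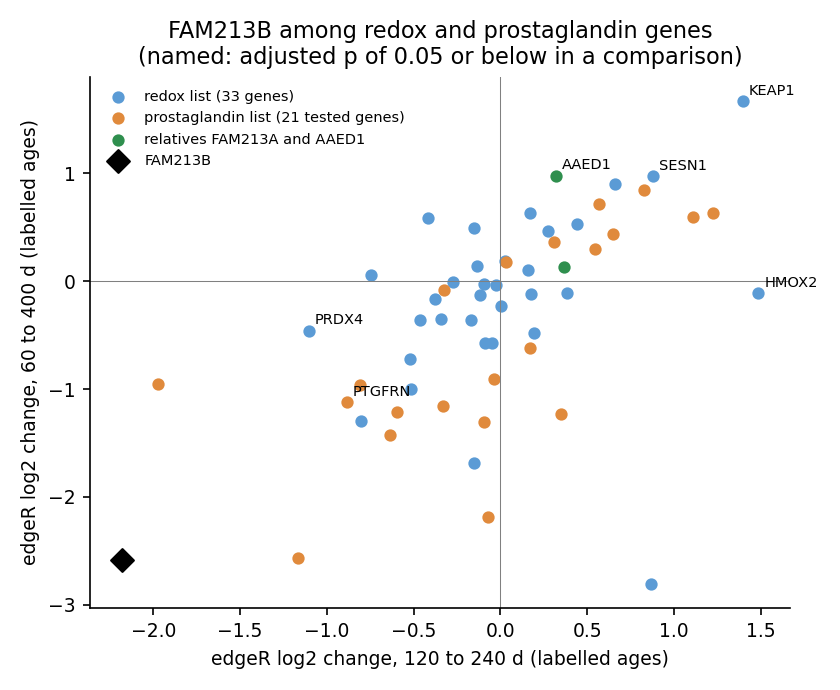
edgeR log2 change from 120 to 240 d (horizontal axis) and from 60 to 400 d (vertical axis), labelled ages, of FAM213B (black diamond), its 2 relatives (green) and the tested genes of the redox (blue) and prostaglandin (orange) lists, with names for genes at an adjusted p of 0.05 or below. FAM213B lies at -2.18 and -2.58 in the lower left, and the redox genes lie between -1.11 and 1.49 on the horizontal axis and between -2.80 and 1.67 on the vertical axis. The prostaglandin genes lie between -1.97 and 1.23 on the horizontal axis and between -2.57 and 0.84 on the vertical axis.

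The tissue and its other cells were followed with marker lists. Slow and fast fibre markers summed to between 5966 and 20765 FPKM and between 20384 and 51859 FPKM per library, the level of a skeletal muscle, and 0 of 4 and 0 of 4 passed the test in either comparison. ACTA1, the skeletal muscle actin, was listed at 0 in 7 of the 12 libraries, those of 60 d among them, so no fold was taken for it, and 0 of the 2 matched genes of the muscle list passed. Of the satellite cell markers, MYOD1 moved with FAM213B and carried most of the summed FPKM of the list at 60 and 120 d. The sum lay between 61.6 and 92.7 in the 60 d libraries and between 54.7 and 62.1 in the 120 d libraries. The sum lay between 15.5 and 27.5 in the 240 d libraries and between 17.7 and 21.8 in the 400 d libraries. Of the 3 matched, MYOD1 and MYF5 fell from 60 to 400 d, beside 7.18% of all features, and MYOD1 fell from 120 to 240 d, beside 3.13%. CDH15 had log2 changes of -0.68 (adjusted p = 0.0557) and -0.45 (adjusted p = 0.387) in edgeR, and PAX7 was not matched. In bulk muscle, fewer cells of a type and less RNA per cell cannot be told apart.

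Genes of early response and heat shock, which rise with stress and handling, moved with FAM213B too. The 7 matched of 11 summed to between 540 and 1898 FPKM in the 60 d libraries and between 475 and 1738 FPKM in the 120 d libraries. Their sums lay between 149 and 480 FPKM in the 240 d libraries and between 34.2 and 371 FPKM in the 400 d libraries. All 7 had log2 changes below 0 in both comparisons, 4 fell from 60 to 400 d, where 7.18% of all features fell, and 1 fell from 120 to 240 d, where 3.13% fell. The median r of their within-age deviations with FAM213B was -0.09. DNAJB1 had an r of 0.71 and HSPH1 of 0.23, and the other genes of the list lay between -0.34 and -0.05. From 60 to 400 d, the counts that fell were 1 of 5 leukocyte, 2 of 3 blood, 1 of 3 endothelium, 1 of 4 fibroblast and 1 of 2 Schwann cell markers, beside the same 7.18% of all features, and 1 of 3 fat cell markers rose, beside 6.88%. From 120 to 240 d, 1 of 4 fibroblast markers fell, and 0 of the leukocyte, endothelium, fat cell, Schwann cell and 2 tested blood markers passed. Fibroblast markers summed to between 623 and 2064 FPKM in the 60 d libraries and between 950 and 1378 FPKM in the 120 d libraries. They reached 482 to 706 FPKM in the 240 d libraries and 208 to 489 FPKM in the 400 d libraries, and the median r of their within-age deviations with FAM213B was 0.70. The highest of these sums, 2064 FPKM, and the highest FAM213B value both belonged to 60 d library 1, and the median r was not recomputed without it. Library 1 was also the highest of its age in both at 240 and 400 d. At 120 d the fibroblast sum was highest in library 2 (1378 FPKM), where FAM213B was lowest (286 FPKM). The part of these cells and of this response in the FAM213B difference was not tested.

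**Figure D5:**
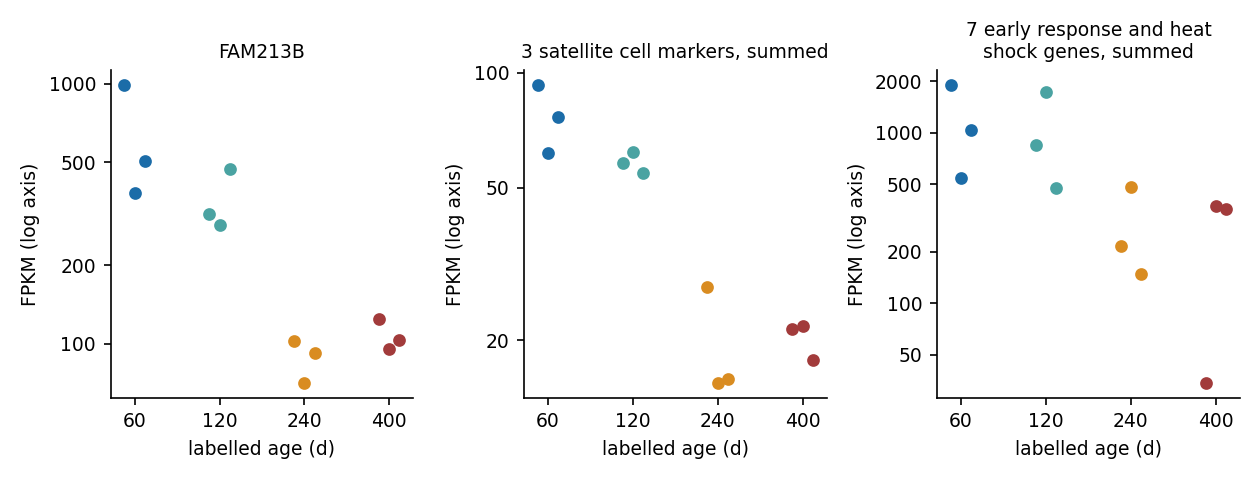
FPKM on log axes (vertical) of FAM213B, of 3 satellite cell markers summed and of 7 early response and heat shock genes summed, in the 12 libraries by labelled age (horizontal). FAM213B and the satellite cell sum separate the 60 and 120 d libraries from the 240 and 400 d libraries, and the early response sum overlaps between them, with 475 in a 120 d library and 480 in a 240 d library.

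Of the neighbours of FAM213B on chromosome 6, only RER1, PANK4, ENSSSCG00000027916 and ENSSSCG00000029881 were tested, and none passed in either comparison. Over all features, 14.1% passed from 60 to 400 d and 5.43% from 120 to 240 d, so these few genes say little about the region. The whole of FAM213B lay within the span of RER1 (58709321 to 58939568), annotated on the same strand, so fragments of one could be counted for the other. RER1, which returns proteins to the endoplasmic reticulum, had mean FPKM of 17.5 ± 5.66, 16.5 ± 1.16, 14.2 ± 1.92 and 14.0 ± 0.621 (SD, n = 3) at 60, 120, 240 and 400 d. Its log2 changes were -0.02 (adjusted p = 0.962) from 60 to 400 d and -0.07 (adjusted p = 0.774) from 120 to 240 d in edgeR, and it held at most 388 counts in a library. MMEL1, 1889 bases away on the other strand, held at most 6 counts in a library. PANK4, a pantothenate kinase family member, had log2 changes of -0.33 (adjusted p = 0.296) and -0.23 (adjusted p = 0.404). The other neighbours were near the floor: PLCH2, ACTRT2, ENSSSCG00000025989 and ENSSSCG00000028706 held at most 3 counts in any library, and ENSSSCG00000027916 at most 27. ENSSSCG00000029881 held at most 58 counts, with mean FPKM of 0.487 at 60 d and 0.122 at 400 d, a log2 change of -1.93 that did not pass (adjusted p = 0.0939, edgeR).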

How the data were processed

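Whole-number counts of fragments per feature were deposited by the authors for 3 libraries at each of 4 ages, without normalization. FPKM values were deposited by the authors as well, from Cufflinks. Per the study's methods, 125-cycle paired-end reads were filtered for quality and mapped to Sscrofa10.2 with TopHat2, whose version is not given in the sources used here. The submitters' processing notes name mm8, Bowtie 0.12.2 and Cufflinks, but the loci in the files are those of pig. The library kit is not stated to keep strand. The 12 columns of normalized counts were not used.

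Ages and groups came from the sample labels. Members and gene lists were chosen with earlier results of these data known. Symbols came from a table of gene names, which matched 11472 of 22658 features, and those of the most alike features also from the study's listing. Levels are FPKM. Their log2 ratios are of age means, with an SE from the SD of the libraries. Changes were tested with edgeR 4.0.16 (R 4.3.3), by its quasi-likelihood test after TMM normalization of the 6 libraries of a pair, over features that averaged 10 or more counts at 1 age or both. P-values were adjusted by Benjamini-Hochberg and called at a false discovery rate of 0.05. The code was tested on simulated data. The floor was 3 counts, or 0.225 to 0.309 CPM. Genes were named by rule: FAM213B, its relatives, list genes that passed or that surround it in the pathway, the 10 highest and 5 lowest r over the libraries, the 8 highest and 4 lowest within ages, and 4 neighbours on each side with any overlapping feature. Of the features named by this rule, 1 is not reported here. Alternatives were DESeq2 1.42.0, its size factors, limma 3.58.1, other filters, pseudocounts and likeness measures, all 12 libraries in 1 fit, a stricter threshold, the listed ages and each library left out.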

Additional observations from a re-analysis of the deposited data

How the results depend on the processing

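As in the main fit, no p of FAM213B given here is independent of the choice of the gene. The change of FAM213B from 60 to 400 d stayed negative and past the threshold in 10 of 15 alternatives. It missed the stricter threshold (false discovery rate of 0.01 and log2 change of 1) at -2.58 with an adjusted p of 0.0143, turned to 1.91 with the listed ages, and ranged from -2.89 to -2.07 with a library left out, where the call was lost without each 400 d library (fits with 2 libraries at that age). The step from 120 to 240 d turned to 2.82 with the listed ages and ranged from -2.15 to -1.77 with a library left out. With DESeq2, 9 list genes passed from 60 to 400 d, and 2784 features against 1825 in edgeR. In 1 fit of all 12 libraries these were 7 and 3178. The stricter threshold left 0 list genes and 0 features from 60 to 400 d by edgeR, where 4481 features had an unadjusted p under 0.05, and 0 and 2 from 120 to 240 d. With the listed ages, 7 of 54 list genes and 2025 of 12989 features passed from 60 to 400 d. From 120 to 240 d, 1 of 54 list genes and 238 of 12926 features did. DESeq2 called 2087 features from 120 to 240 d, against 705. With a library left out, list genes called ranged from 0 to 5 and features from 0 to 1892 from 60 to 400 d, and from 0 to 2 and from 2 to 470 from 120 to 240 d. The lowest feature counts came without 400 d library 2 and without 120 d library 3. The cause was not tested. No paired analysis was possible because each pig was sampled once, at 1 age.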

Other observations

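Of the list genes with a mean of at least 1 FPKM, PRDX4 and PTGR2 had the highest r with FAM213B within ages (0.905 and 0.894), and both were singled out after their values were seen. At 60 d, library 1 was the highest for PRDX4, PTGR2 and FAM213B alike, and these r were not recomputed without it. PTGR2 encodes a reductase that breaks down prostaglandin metabolites. Over the 12 libraries PRDX4 had an r of 0.861 and PTGR2 of -0.349. PTGR2 had 26.7, 18.3 and 19.8 FPKM at 60 d and 27.9, 26.1 and 24.5 FPKM at 400 d. Median r within ages was 0.38 over 31 redox genes and -0.12 over 16 prostaglandin genes.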
